A study of Mus musculus with 7 samples.

Results

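The genes described here are 39 genes of the NRF2 pathway and of the antioxidant enzymes, followed in mouse livers 8 h after carbon tetrachloride (CCl4). They were chosen by name from a list and found through their Ensembl identifiers in the GENCODE annotation, and all 39 were present, each on 1 identifier, among the 14851 identifiers of the deposited table. The RNA-seq libraries came from whole liver of 2 genotypes, Albumin-Cre; p53 FL/FL (FL, 4 mice) and Albumin-Cre; p53 WT (WT, 3 mice). All 7 animals were males of the C57BL/6J strain, about 70 days old, and all carried Cre recombinase driven by the Albumin promoter, which is active in hepatocytes. In FL mice both copies of Trp53, the gene of p53, are floxed, so that Cre removes the gene in hepatocytes. Which other cells of the liver keep it was not measured here. In WT mice Trp53 is intact. Each mouse received 1 intraperitoneal injection of 1 mL/kg of 20% CCl4 in corn oil, and no untreated liver was compared here. Some mice of both genotypes carried a Cre-activated red fluorescent reporter at Rosa26, and the sources used here do not say which. The source names of the 3 WT mice share a prefix that no FL mouse has, so whatever that prefix stands for and the genotype cannot be told apart.

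NRF2, encoded by Nfe2l2, is a transcription factor that KEAP1 normally holds in the cytoplasm and marks for degradation. Electrophiles and oxidants modify KEAP1, after which NRF2 enters the nucleus, pairs with a small MAF protein and binds the antioxidant response element in front of genes that make glutathione, regenerate thioredoxin, supply NADPH and reduce quinones. CCl4 is converted by cytochrome P450 enzymes, mainly CYP2E1 in the hepatocytes around the central vein, into radicals that start lipid peroxidation. The peroxides and superoxide that follow are removed by superoxide dismutases, catalase, glutathione peroxidases and peroxiredoxins, which draw on glutathione, thioredoxin and NADPH.

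The core letters of the antioxidant response element, TGACNNNGC on either strand, were looked up in RefSeq promoters of build GRCm38.p6, each running from 250 bases before to 50 bases after a transcription start. Of the 39 genes, 35 had a promoter entry, and Hmox1, Gclc, Gsr and Prdx6 had none. The letters occurred in 11 of the 43 promoters of these genes (25.6%) and in 4071 of 32851 mouse promoters (12.4%). The longer form TGACTCAGC, which also holds TGACTCA, the letters of an AP-1 site, occurred in the promoters of Prdx1 and Me1 (2 of 43, 4.65%) and in 149 of 32851 (0.454%). The 30-base windows below are those of the 2 genes with the longer form, of 2 genes whose values fell together in the livers that stood apart (Txnrd1 and Srxn1), and of Nfe2l2 itself. Each reads 5′ to 3′ along the strand of the gene, and capitals mark the match, which appears as its reverse complement where it lies on the opposite strand (Prdx1, Txnrd1 and Srxn1).
Prdx1, chr4:116685455-116685484, plus strand: ccagggaaagcGCTGAGTCAtcccccgtag
Me1, chr9:86695902-86695931, minus strand: cgatgccgccgTGACTCAGCgcttctcgcg
Txnrd1, chr10:82859103-82859132, plus strand: actggatttttGCTTTGTCAttctgacacg
Srxn1, chr2:152105541-152105570, plus strand: ggcagtgggcaGCTAGGTCAgagtgagaca
Nfe2l2, chr2:75704884-75704913, minus strand: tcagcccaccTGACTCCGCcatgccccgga
Counted from the start site as position 0, the matches lay at -133 to -125 for Prdx1, at -6 to 2 for Me1, at -92 to -84 for Txnrd1, at 28 to 36 for Srxn1 and at -240 to -232 for Nfe2l2. The other 6 genes with a match were Blvra, G6pdx, Gclm, Mafg, Pgd and Sod1. No match was found in the window of Nqo1, which says only that these letters are not in those bases. The matches are descriptions of sequence, and binding was not measured.

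The values are the authors' normalised counts after rounding to whole numbers, and a difference is given as the log2 fold change, FL minus WT, of log2(normalised count + 1), which makes changes of sparsely counted genes look smaller than they are. The estimated number of reads on genes was 11.9 to 19.5 M in FL and 15.4 to 17.1 M in WT, and no counting interval is given because rounding hides the reads behind each value. Trp53 was 110 to 217 in FL and 688 to 876 in WT (log2 fold change -2.48, adjusted p = 0.0447 by limma), as the labels of the genotypes state. Hepatocyte markers (6 of 6 present) summed to between 1416185 and 1905428 in FL and between 1205234 and 1469297 in WT, so the label of the tissue held. Among them Ttr and Apoa1 were higher in FL without overlap (adjusted p = 0.999 by limma), and the others overlapped. Of the 12545 genes tested, 2 passed an adjusted p of 0.05 (0.0159%), and both were lower in FL. The study's own test, DESeq2 on counts, called more genes in these livers at the same threshold. A gene that did not pass here is therefore not shown to be unchanged.

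WT replicate 2 and FL replicate 3 stood apart from the other 5 livers. On the first principal component, which held 66.73% of the variance, they lay at 82.01 and 29.24, and the others between -25.61 and -19.08. Markers of pericentral hepatocytes (8 of 8 present) summed to 17181 in WT replicate 2, or 0.242 times the mean of the other WT livers. They summed to 24119 in FL replicate 3, or 0.424 times the mean of the other FL livers. Of the 8, 5 were lowest in WT replicate 2, and Oat, Rgn and Lgr5 were not. Oat (1068 to 1836 in FL, 1958 to 4185 in WT) and Rgn (2779 to 4009 and 4410 to 5655) were lower in FL without overlap. Their adjusted p was 0.999 by limma. Lgr5 was low throughout, at 3 to 15 in FL and 4 to 15 in WT. Macrophage markers were highest in WT replicate 2 for 8 of 8 genes and summed to 2.58 times the other WT livers, stellate cell markers to 2.11 times (5 of 6 highest there, Acta2 being highest in WT replicate 1), and proliferation genes to 4.28 times (9 of 10 highest there, Pcna being lowest). Because of these livers the log2 fold changes below are given with all 7 livers and, for the genes described in detail, again without both of them. In bulk RNA, fewer cells of a type and less RNA per cell cannot be told apart.

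**Figure D1:**
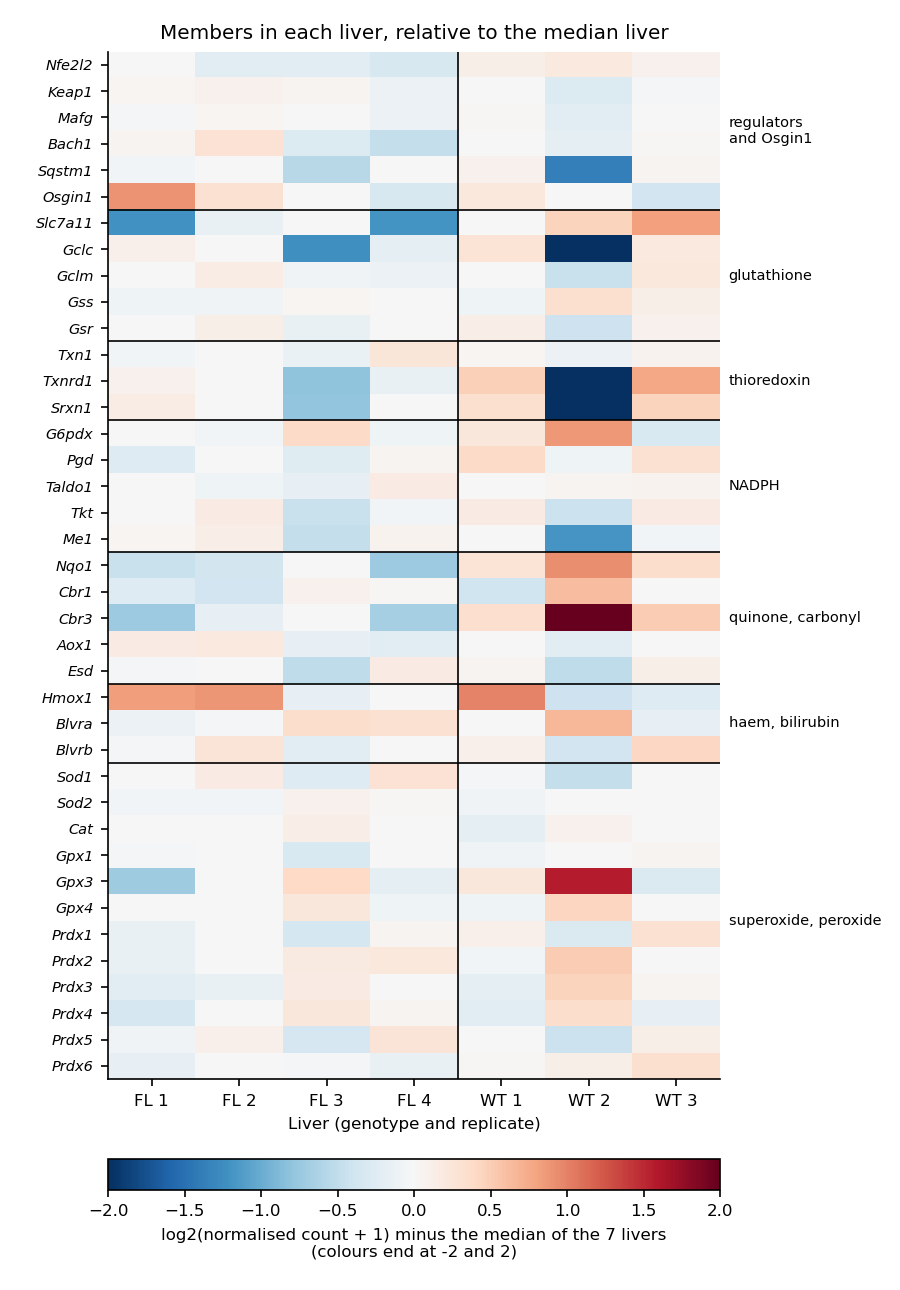
Each cell of the map shows log2(normalised count + 1) of 1 gene (rows, grouped by function) in 1 liver (columns, 4 FL and 3 WT) minus the median of that gene over the 7 livers. The darkest cells lie in the column of WT replicate 2, blue for Gclc, Txnrd1 and Srxn1 and red for Cbr3 and Gpx3, and the map colours end at -2 and 2.

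With all 7 livers, Nqo1, Cbr3, Slc7a11 and Nfe2l2 were lower in FL at an unadjusted p under 0.05 by limma, and no member was higher at that level. These 4 of 39 genes make up 10.3%, against 3.2% of all tested genes in either direction and 1.6% of them lower in FL. None of the 39 passed the adjusted threshold, and the smallest adjusted p of a member was 0.999. In 4 of 39 members the FL livers were all below the WT livers (Nqo1, Cbr3, Nfe2l2 and Prdx6), against 1.98% of all tested genes. Without WT replicate 2 and FL replicate 3, 10 of 39 members were lower in FL at an unadjusted p under 0.05 (25.6%), against 5.17% of 12325 tested genes, and none was higher. These were the 4 above with Txnrd1, Pgd, Srxn1, Prdx6, Prdx1 and Gclc. Again none passed the adjusted threshold, the smallest adjusted p being 0.15, while 0.0487% of all tested genes passed. Over the whole list 21 members were lower and 18 higher in FL, with a median log2 fold change of -0.04 (0.01 over all tested genes), or 24 lower and 15 higher and -0.04 (-0.01) without both livers. Scaling every liver to the same total moved the median of all tested genes to -0.10 and that of the members to -0.15, and the share of genes at an unadjusted p under 0.05 that were lower in FL went from 50.1% to 85.7%. On that scaling, as after quantile normalisation, 6 members had such a p, the 4 above with Pgd and Prdx6, all lower in FL.

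**Figure D2:**
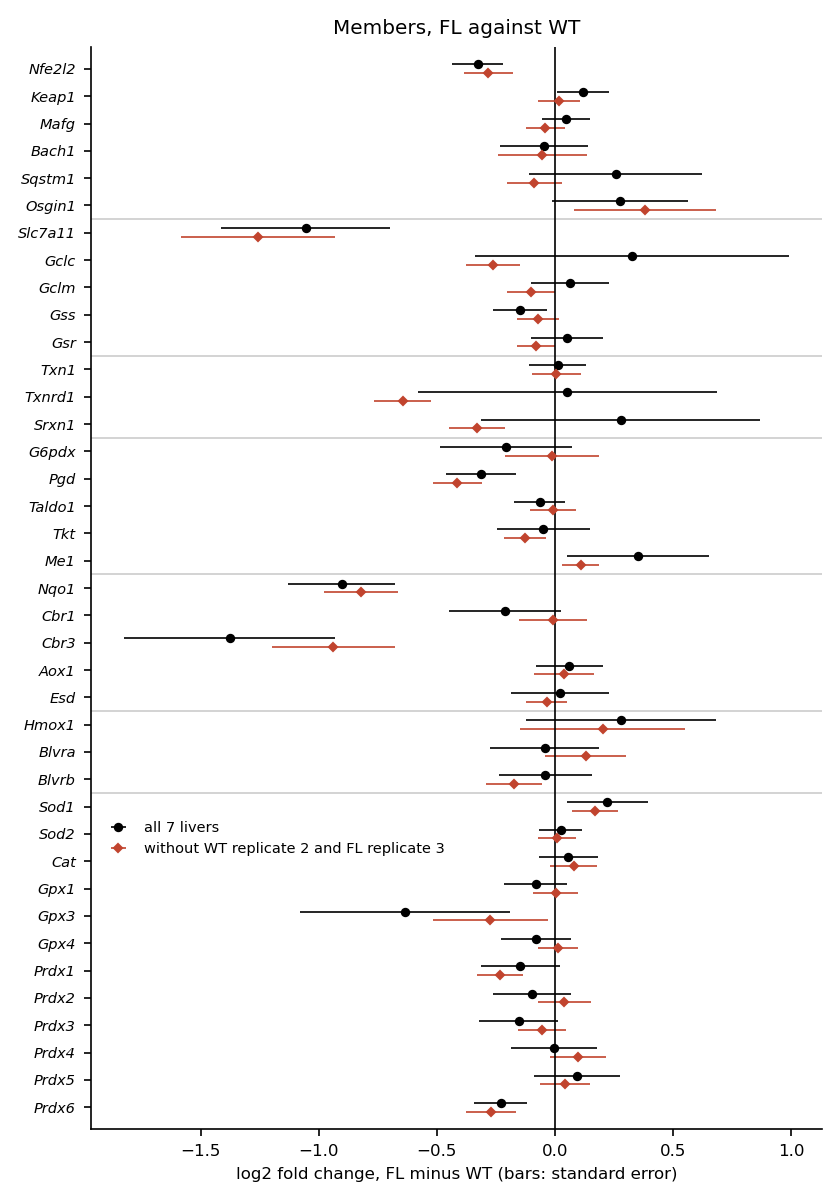
The x axis gives the log2 fold change, FL minus WT, and the bars its standard error, for each of the 39 genes (rows), with all 7 livers in black and without WT replicate 2 and FL replicate 3 in red. Nqo1, Cbr3 and Slc7a11 lie left of the others, and the red points of Txnrd1, Srxn1, Gclc and Sqstm1 lie left of 0 where the black points lie right of it. By smaller shifts Mafg, Gclm, Gsr and Esd cross 0 the same way, and Blvra, Gpx1, Gpx4, Prdx2 and Prdx4 the other way.

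Per kilobase of exon, the levels of the 39 genes ran from G6pdx, with a median over the livers of 24.03 normalised counts per kilobase (range 19.5 to 44.2), to Sqstm1, with 24313 (9448 to 25789). After Sqstm1, which encodes the autophagy receptor p62, came the sulfiredoxin Srxn1 with 21384 (5081 to 28971), the glutathione peroxidase Gpx1 with 20419 (16452 to 21155) and catalase (Cat) with 10089.6 (8945 to 11105). The ranges of the first 3 genes overlapped, so their order was not resolved beyond the spread between livers. At the lower end, Cbr3 had 29.5 per kilobase (17.5 to 132), the cystine transporter Slc7a11 34.7 (15.0 to 61.1), Gpx3 59.0 (35.9 to 177) and Nqo1 89.5 (54.1 to 172). The 3 members with the largest log2 fold changes, Cbr3, Slc7a11 and Nqo1, were thus among the 6 lowest of the 39 per kilobase. Of all members, 12 varied by an SD under 0.2 between the 7 livers on the log2 scale, with Sod2 (0.06), Mafg (0.09) and Cat (0.10) the steadiest.

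**Figure D3:**
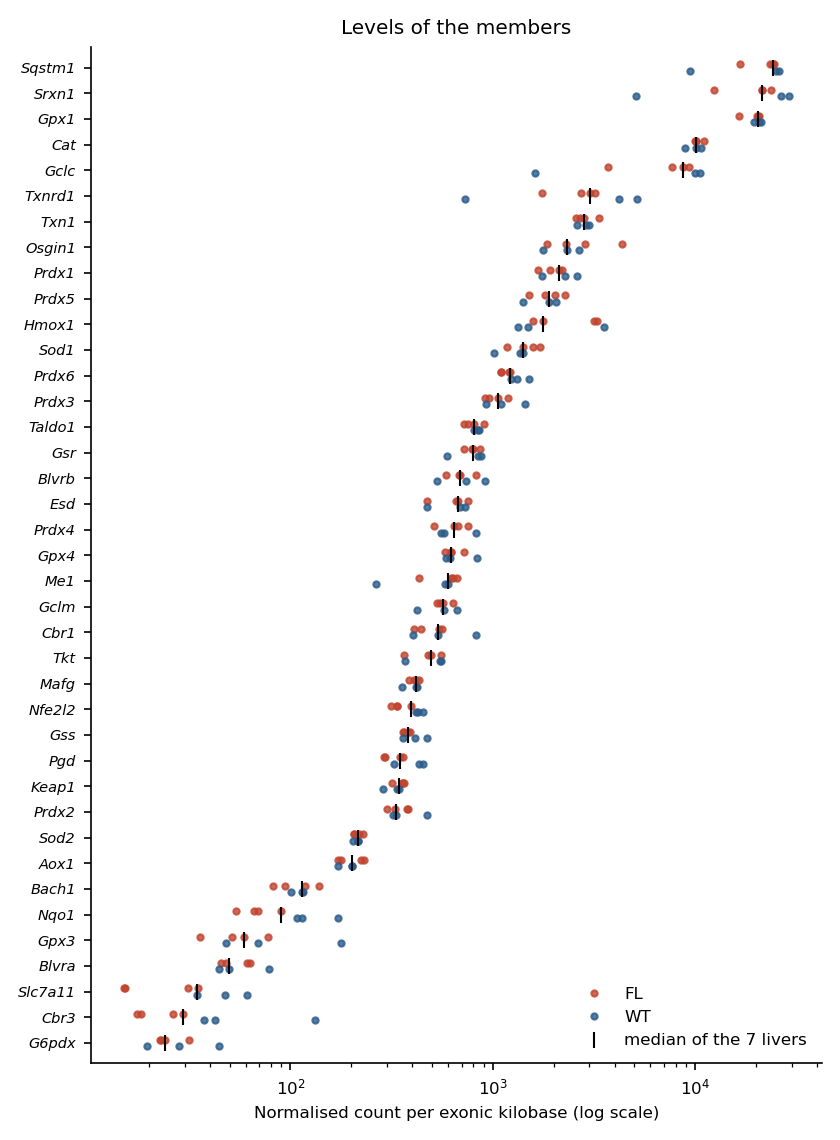
Each point is the normalised count per exonic kilobase in 1 liver (x axis, log scale), red for FL and blue for WT, with a black mark at the median of the 7 livers and the 39 genes ordered by that median. The single blue points far to the left of Sqstm1, Srxn1, Gclc, Txnrd1 and Me1 are WT replicate 2.

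Among the regulators, Nfe2l2 (ENSMUSG00000015839, chromosome 2, 75675513 to 75704641 of GRCm38, minus strand) was lower in FL. Its normalised counts were 1494, 1274, 1274 and 1197 in FL and 1617, 1713 and 1583 in WT, in the order of the replicates, as in all such lists here. The highest FL value was lower than the lowest WT value, and the FL mean of 1309.8 ± 128 (SD, n = 4) was 80.0% of the WT mean of 1638 ± 67.4 (SD, n = 3). The log2 fold change was -0.33 (SE 0.11, unadjusted p = 0.0162 and adjusted p = 0.999 by limma). The exact two-sided permutation test over the 35 assignments of the livers gave p = 0.0571, where the smallest it can give is 0.0286. Without both livers that stood apart the log2 fold change was -0.28 (SE 0.10, unadjusted p = 0.024 by limma), so that this difference, small as it was, did not rest on them.

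Keap1, whose product is the sensor that turns NRF2 over, read 1663, 1716, 1689 and 1490 in FL and 1620, 1338 and 1578 in WT. The groups overlapped, and the log2 fold change was 0.12 (SE 0.11, unadjusted p = 0.307 by limma), or 0.02 without both livers. Mafg, a small MAF partner of NRF2, ranged from 2166 to 2411 in FL and from 1998 to 2369 in WT. Bach1, a repressor that competes with NRF2 for the same element, ranged from 504 to 856 in FL and from 619 to 711 in WT. Osgin1, an oxidative stress-induced growth inhibitor, was highest in FL replicate 1 at 11582, with the other FL livers between 4940 and 7636 and the WT livers between 4736 and 7158. Of these 6 genes, including Sqstm1, only Nfe2l2 had an unadjusted p under 0.05, with all livers or without both.

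Sqstm1, which encodes p62 and binds KEAP1, had 78170, 81594, 55731 and 81950 in FL and 86548, 31708 and 84528 in WT. The livers that stood apart held the lowest value of each genotype, and the remaining 5 lay between 78170 and 86548. The log2 fold change of 0.26 (SE 0.37) was accordingly -0.09 (SE 0.12) without both livers.

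In the glutathione group, Slc7a11 (chromosome 3, 49892526 to 50443614, minus strand), the xCT subunit that brings in cystine for glutathione synthesis, was lower in FL. Its counts were 209, 435, 488 and 211 in FL and 483, 660 and 851 in WT. The groups touched, since FL replicate 3 at 488 exceeded WT replicate 1 at 483. The FL mean of 336 ± 147 (SD, n = 4) was 50.5% of the WT mean of 665 ± 184 (SD, n = 3), with a log2 fold change of -1.05 (SE 0.36, unadjusted p = 0.0187 by limma, exact permutation p = 0.143). Without both livers it was -1.26 (SE 0.32, unadjusted p = 0.00361 by limma). Leaving out FL replicate 4 alone gave -0.87 with an unadjusted p of 0.0509, and leaving out WT replicate 3 alone gave -0.86 with 0.0696, both by limma.

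Gclc, the catalytic subunit of the enzyme that sets the rate of glutathione synthesis, varied most of the 39 genes between the livers (SD 1.00 on the log2 scale). It read 35004, 32733, 14021 and 28908 in FL and 39532, 6090 and 37506 in WT. WT replicate 2 had 0.158 times the mean of the other WT livers and FL replicate 3 had 0.435 times the mean of the other FL livers. The log2 fold change moved from 0.33 (SE 0.66) to -0.26 (SE 0.11, unadjusted p = 0.0456 by limma) once both were left out. Its modifier subunit Gclm was lower in the same livers by less, 0.678 times in WT replicate 2 and 0.945 times in FL replicate 3, with 3319 to 3991 in FL and 2641 to 4172 in WT. Glutathione synthetase (Gss) ranged from 2127 to 2312 in FL and from 2128 to 2809 in WT, and glutathione reductase (Gsr) from 1978 to 2371 and from 1637 to 2402. Of the 5 genes 1 was lower in FL at an unadjusted p under 0.05 with all livers, and 2 were without both.

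In the thioredoxin group 2 of the 3 genes fell, like Gclc, in the livers that stood apart. Txnrd1, the cytosolic thioredoxin reductase that keeps thioredoxin reduced with NADPH, had 22676, 21451, 12344 and 19388 in FL and 29769, 5174 and 36668 in WT. WT replicate 2 was the lowest of the 7 livers and the other WT livers were the highest. Over all livers the log2 fold change was 0.05 (SE 0.63, unadjusted p = 0.936 by limma), and it was -0.08 after quantile normalisation and -0.06 after scaling to the same total. Without both livers the FL mean of 21172 and the WT mean of 33218.5 gave -0.65 (SE 0.12, unadjusted p = 0.000426 and adjusted p = 0.15 by limma). Srxn1, which repairs overoxidised peroxiredoxins, had 66572, 60304, 35076 and 60194 in FL and 75122, 14329 and 81699 in WT. It followed the same order, with a log2 fold change of 0.28 (SE 0.59) over all livers and of -0.33 (SE 0.12, unadjusted p = 0.0201 by limma) without both. Thioredoxin itself (Txn1) was steady, at 2697 to 3520 in FL and 2746 to 3131 in WT. Over the 3 genes the median deviation from the median liver was -2.05 in WT replicate 2 and -0.78 in FL replicate 3 on the log2 scale, and between -0.0026 and 0.44 in the other 5.

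Txnrd1, Srxn1, Gclc, Sqstm1 and Me1 were lowest in WT replicate 2, and in each the lowest FL liver was replicate 3. The summed markers of pericentral hepatocytes had the same 2 low livers. There was 1 such liver in each genotype, and the fall was deeper in the WT liver. Without both livers the pericentral markers were still lower in FL, with log2 fold changes of -0.99 for Oat, -0.41 for Rgn and -0.38 for Cyp1a2. Those of Slc1a2, Axin2, Cyp2e1 and Glul were -0.32, -0.30, -0.29 and -0.20, and Lgr5 was too low to be tested. The part of pericentral hepatocytes in the values of the members, with all livers or without both, was not tested. Leaving out WT replicate 2 alone turned the log2 fold changes of Txnrd1 (-0.84), Srxn1 (-0.54), Gclc (-0.56) and Sqstm1 (-0.22) negative. Leaving out FL replicate 3 alone left them positive, at 0.25, 0.49, 0.63 and 0.39. Txnrd1, near 0 over all livers, also turned without FL replicate 1 (-0.05) or FL replicate 2 (-0.02). Over all members, 12 of 39 were highest in WT replicate 2 and 13 of 39 lowest there (30.8% and 33.3%), close to the 31.6% and 34.0% of all tested genes, so the extreme values of that liver were no more frequent in these genes than elsewhere.

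**Figure D4:**
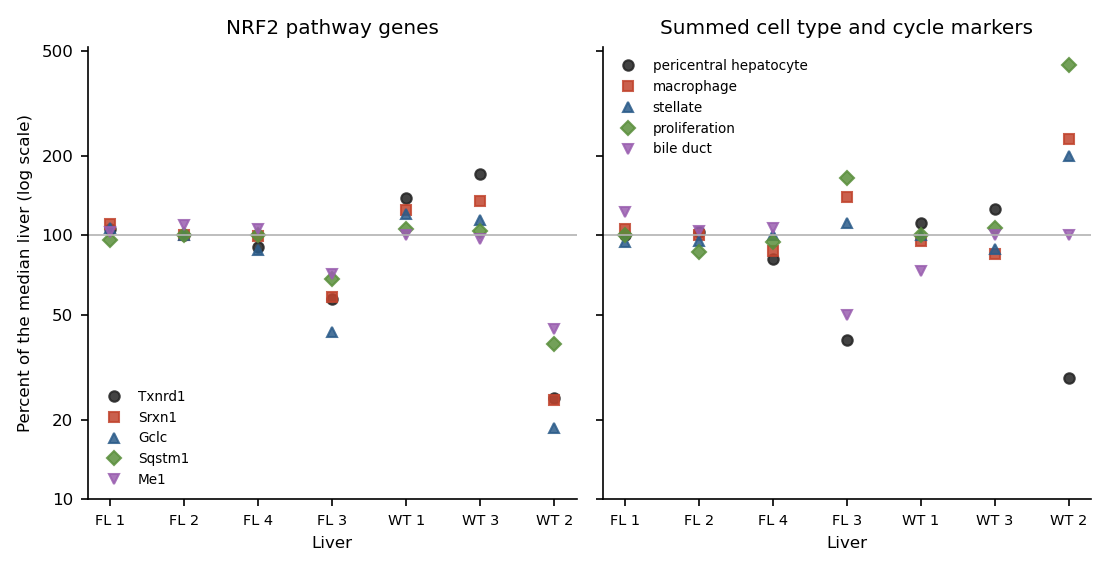
The y axis gives the percent of the median liver on a log scale, left for Txnrd1, Srxn1, Gclc, Sqstm1 and Me1 and right for the summed counts of 5 marker lists, in the 7 livers (x axis) with FL replicate 3 and WT replicate 2 placed last in their genotype. The 5 genes and the pericentral markers were lowest in WT replicate 2, where proliferation, macrophage and stellate markers were highest.

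In the NADPH group, 6-phosphogluconate dehydrogenase (Pgd), chosen for description after its values were seen, had 1868, 2237, 1894 and 2325 in FL and 2910, 2104 and 2773 in WT. WT replicate 2 lay within the FL range and the other WT livers above it. The log2 fold change was -0.31 (SE 0.15, unadjusted p = 0.0699 by limma), and -0.41 (SE 0.10, unadjusted p = 0.00325 by limma) without both livers. Glucose-6-phosphate dehydrogenase (G6pdx), the first enzyme of the pentose phosphate pathway, had 74, 71, 97 and 70 in FL and 87, 136 and 60 in WT. The lowest and the highest of these 7 livers were both WT, so the genotypes were not separated. Its log2 fold change was -0.21 (SE 0.28), or -0.01 without both livers, and 10.5% of its 36-base stretches are shared with another gene, mainly G6pd2. Malic enzyme (Me1), also chosen afterwards, had 2382, 2545, 1658 and 2442 in FL and 2314, 1022 and 2236 in WT, with a log2 fold change of 0.35 (SE 0.30) and of 0.11 (SE 0.08) without both livers. Transaldolase (Taldo1), at 1558 to 1972 in FL and 1744 to 1844 in WT, and transketolase (Tkt), at 2670 to 4056 and 2693 to 4072, overlapped. None of the 5 genes had an unadjusted p under 0.05 with all livers, and only Pgd did without both.

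In the quinone and carbonyl group, 2 of the 5 genes were lower in FL without overlap. Nqo1 (ENSMUSG00000003849, chromosome 8, 107388225 to 107403206, minus strand), which reduces quinones to hydroquinones and is a common reporter of NRF2 activity, had 102, 107, 139 and 84 in FL and 168, 267 and 177 in WT. The genotypes did not overlap, the highest FL value being 139 and the lowest WT value 168. The FL mean of 108.0 ± 22.9 (SD, n = 4) was 52.9% of the WT mean of 204 ± 54.7 (SD, n = 3). The log2 fold change was -0.90 (SE 0.23, unadjusted p = 0.00421 and adjusted p = 0.999 by limma), which ranked it 31 by p among the 12545 genes. The exact two-sided permutation test gave p = 0.0286, the smallest it can give with these livers. Without both livers the log2 fold change was -0.82 (SE 0.16, adjusted p = 0.15 by limma). In each genotype the liver that stood apart had the highest Nqo1, 1.55 times the mean of the other WT livers and 1.42 times that of the other FL livers.

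Cbr3 (chromosome 16, 93683215 to 93690990, plus strand), an NADPH-dependent carbonyl reductase, had 22, 33, 37 and 23 in FL and 47, 165 and 53 in WT. The groups did not overlap, and WT replicate 2 at 165 was 3.30 times the mean of the other WT livers. The FL mean of 28.8 ± 7.41 (SD, n = 4) was 32.5% of the WT mean of 88.3 ± 66.5 (SD, n = 3), with a log2 fold change of -1.38 (SE 0.45, unadjusted p = 0.0155 by limma, exact permutation p = 0.0286). Much of its size came with that liver, since leaving out WT replicate 2 alone gave -0.81 (SE 0.28, unadjusted p = 0.0201 by limma) and leaving out both gave -0.94 (SE 0.26, unadjusted p = 0.00558 by limma). Its neighbour and paralogue Cbr1 (chromosome 16, 93605853 to 93610505) had 1047 to 1437 in FL and 1034 to 2097 in WT, and its log2 fold change of -0.21 (SE 0.24) was -0.01 without both livers. The pair shares 1.52% of the 36-base stretches of Cbr3. Aldehyde oxidase (Aox1), at 1486 to 2003 in FL and 1499 to 1752 in WT, and the esterase Esd, at 1583 to 2527 and 1590 to 2444, overlapped. The difference between the genotypes in this group was thus carried by 2 of its 5 genes, both of low level, and the summed macrophage, stellate and proliferation genes were also highest in the WT liver with the highest Nqo1 and Cbr3, though Acta2 and Pcna were not, and their part in these values was not tested.

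**Figure D5:**
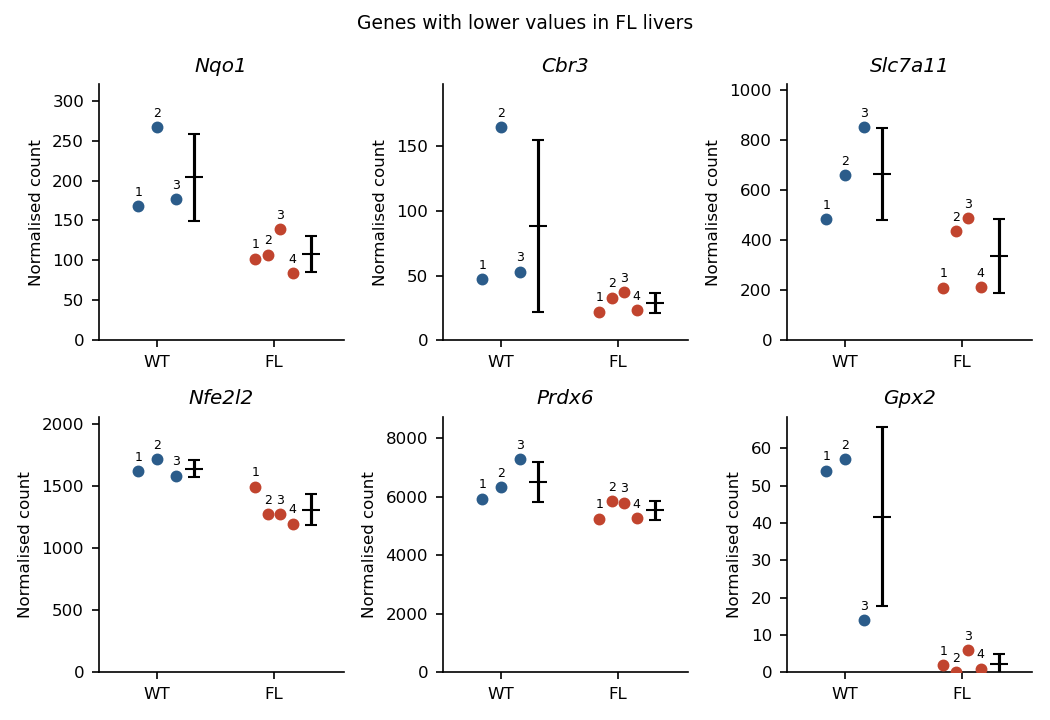
Points give the normalised count (y axis, from 0) of Nqo1, Cbr3, Slc7a11, Nfe2l2, Prdx6 and Gpx2 in each liver, blue for 3 WT and red for 4 FL livers, numbered by replicate, with the mean and SD of each genotype as a black bar. The FL points lie below the WT points in all panels but that of Slc7a11, where FL replicate 3 (488) and WT replicate 1 (483) nearly coincide.

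Haem and bilirubin metabolism did not separate the genotypes. Haem oxygenase 1 (Hmox1), which opens the haem ring and is induced by NRF2 when BACH1 is released, was chosen for description after its values were seen. It had 5544, 5740, 2770 and 3106 in FL and 6201, 2327 and 2605 in WT. The livers fell into a high set of 3 (5544 to 6201) and a low set of 4 (2327 to 3106), each with both genotypes, and the livers that stood apart were in the low set together with FL replicate 4 and WT replicate 3. The log2 fold change was 0.28 (SE 0.40), or 0.20 (SE 0.35) without both livers, and ran from 0.02 without WT replicate 2 to 0.72 without WT replicate 1. Biliverdin reductases A (Blvra, 111 to 154 in FL and 108 to 192 in WT) and B (Blvrb, 1635 to 2291 and 1476 to 2542) overlapped.

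Of the 12 enzymes that remove superoxide and peroxide, none had an unadjusted p under 0.05 with all livers. Prdx6, a peroxiredoxin that uses glutathione and repairs oxidised phospholipids, was the only one without overlap, with 5252, 5857, 5791 and 5268 in FL and 5935, 6328 and 7279 in WT. The gap between the groups was narrow, 5857 against 5935. Its log2 fold change was -0.23 (SE 0.11, unadjusted p = 0.0756 by limma, exact permutation p = 0.0286), -0.27 (unadjusted p = 0.0303 by limma) without both livers, and -0.15 without WT replicate 3 alone. Prdx1, a thioredoxin-dependent peroxiredoxin and a gene with the longer promoter match, was chosen for description afterwards and had 5834, 6465, 5094 and 6687 in FL and 6916, 5294 and 7953 in WT. Its groups overlapped through WT replicate 2, and the log2 fold change of -0.15 (SE 0.17) was -0.23 (SE 0.10, unadjusted p = 0.042 by limma) without both livers. Stretches shared with other genes made up 12.98% of Prdx1.

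The abundant enzymes of this group were flat. Catalase had 26344, 26364, 29018 and 26167 in FL and 23373, 28030 and 26496 in WT, and the log2 fold change was 0.06 (SE 0.12), or 0.08 without both livers. Gpx1 had 28959, 29424, 23707 and 29704 in FL and 28140, 29690 and 30484 in WT, with -0.08 (SE 0.13), or 0.00 without both livers. Both sets of values overlapped throughout. The cytosolic superoxide dismutase Sod1 (4680 to 6782 in FL, 4002 to 5577 in WT) and the mitochondrial Sod2 (2068 to 2293 and 2038 to 2163) overlapped as well, as did Gpx4 (1003 to 1242 and 1008 to 1433), which reduces lipid hydroperoxides in membranes. Gpx3, the secreted glutathione peroxidase, described after its values were seen, had 65, 107, 141 and 93 in FL and 126, 321 and 87 in WT, and WT replicate 2 stood at 3.01 times the other WT livers. Its log2 fold change of -0.63 (SE 0.44) was -0.27 (SE 0.24) without both livers, -0.10 without WT replicate 2 alone and -1.03 (unadjusted p = 0.0465 by limma) without WT replicate 3 alone. The remaining peroxiredoxins, Prdx2 to Prdx5, had log2 fold changes from -0.15 (Prdx3) to 0.09 (Prdx5), and Prdx2, Prdx3 and Prdx4 were highest in WT replicate 2 while Prdx5 was lowest there.

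A further 49 genes of the same pathways were looked up beside the 39, of which 46 were tested. One of the 46 had an unadjusted p under 0.05 (2.17%, against 3.2% of all tested genes), the gastrointestinal glutathione peroxidase Gpx2 (chromosome 12, 76792333 to 76795554, minus strand), and none passed the adjusted threshold. Gpx2 had 2, 0, 6 and 1 normalised counts in FL and 54, 57 and 14 in WT, without overlap. The FL mean of 2.25 ± 2.63 (SD, n = 4) is below 3 counts, so the log2 fold change of -3.83 (SE 0.79, unadjusted p = 0.00129 and adjusted p = 0.999 by limma, exact permutation p = 0.0286) depends on the pseudocount and is no bound on the ratio. Without both livers it was -3.98 (adjusted p = 0.15 by limma). Bile duct markers (5 of 5 present) summed to between 603 and 1482 in FL and between 879 and 1204 in WT. Among them Krt19 read 21, 11, 6 and 17 in FL and 128, 106 and 26 in WT. Krt7 read 14, 8, 2 and 18 in FL and 33, 33 and 28 in WT. Epcam (30 to 114 in FL, 95 to 133 in WT) and Spp1 (268 to 604 and 324 to 818) overlapped between the genotypes. Spp1 was highest in WT replicate 3, where Gpx2 and Krt19 had their lowest WT value. Sox9 went the other way, at 297 to 763 in FL and 204 to 261 in WT. The part of bile duct cells in the values of Gpx2 was not tested, and 8.54% of its 36-base stretches occur in other genes, mainly Gpx2-ps1.

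By list, the companions with an unadjusted p under 0.05 were 0 of 6 NRF2-related factors and cofactors, 1 of 16 further glutathione and thioredoxin genes, 0 of 9 NADPH genes, 0 of 10 other NRF2-linked genes and 0 of 5 redox genes linked to p53. Their median log2 fold change was 0.02, with 18 lower and 28 higher in FL. Without both livers 6 of 45 tested companions had such a p (13.3%), against 9.74% of 12325 tested genes. Cyp2a5, a cytochrome P450 gene that NRF2 and other factors can induce, had 887 to 2104 in FL and 3210 to 9903 in WT, without overlap (log2 fold change -1.75, adjusted p = 0.999 by limma, and -2.13 with 0.143 without both livers). The study's own test, DESeq2 on counts, did call Cyp2a5 between these genotypes.

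Some values can hold reads of other genes. Stretches of 36 bases, the read length, shared with other genes made up over 10% of 7 members, led by Gpx4 (37.6%, mainly Gpx4-ps2), Me1 (28.0%, mainly Gm7049) and Sod2 (24.8%), and none of Nqo1, Nfe2l2, Gclc, Txnrd1, Srxn1 and Sqstm1. Another gene lay over 8 members on the same strand, among them Eid3 over Txnrd1 and Sirt7 over Mafg, and over 11 members on the opposite strand, where reads are told apart only if strand was used in counting. Mafg, Sqstm1 and Gpx3 lie on chromosome 11 with the floxed Trp53.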

How the data were processed

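Liver RNA of 7 individual mice, 4 FL and 3 WT by the sample labels, was analysed at 8 h after CCl4. The study's methods and the submitters' processing notes describe paired-end stranded libraries of polyadenylated RNA, Tophat 2.0.13 and Bowtie 2.2.6.0 alignment, gene counts from HTSeq 2.2.4.0, with featureCounts also listed, and DESeq2 size factors in R 3.4.2. The annotation is given as release 75 under a human build name, so coordinates and symbols here came from GENCODE vM21 (GRCm38). The deposited values are counts normalised by the authors and rounded to whole numbers, treated as a score, so no count test was run. Of 14988 rows, 120 repeated identifiers were identical and kept once, and 0 columns of values were unused. The reads per library were estimated from the spacing of low values, and library totals were 14123213 to 16554427.

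FL and WT were compared with limma 3.58.1 in R 4.3.3 (eBayes with a trend of the variance on the mean). The values were log2(normalised count + 1) of the 12545 genes that averaged 10 or more, with p-values adjusted by Benjamini-Hochberg over all of them at a threshold of 0.05, and with exact two-sided permutation tests over the 35 assignments of the livers. The fit was run on simulated data whose planted changes were larger than that of any member and whose spread left out the livers that stood apart. It therefore cannot show how well changes as small as those of the members are found in these livers. Promoters were RefSeq's. Other steps used Python 3.11.15, pandas 2.3.3, NumPy 2.4.6 and Matplotlib 3.10.9.

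The members, lists and tests were chosen with earlier results of these data known. Values in every liver were given for Nfe2l2, Keap1 and Nqo1, members without overlap or with an unadjusted p under 0.05, the 5 with the largest SD, the highest and lowest per kilobase, and up to 6 companions with the smallest unadjusted p under 0.05. Cat, Gpx1, Pgd, Me1, Hmox1, Gpx3 and Prdx1 were added after their values were seen. Alternatives were other pseudocounts, filters, scalings and limma settings, a replicate block, and leaving out livers. The labels name no pairs, so livers of the same replicate number were not treated as pairs. Replicate numbers 1 to 3 correlated across genotypes at 0.438, -0.483 and -0.661. These values cannot show whether mice were paired, because the livers that stood apart, which carry different numbers, weigh heavily on them.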

Additional observations from a re-analysis of the deposited data

Results flagged for a closer look

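In the 4 FL livers, 43 measures (the first principal component, the 39 members, Gpx2, Trp53 and Cyp2a5) were examined for 1 liver far from the others, which chance flags in about 1 in 20 groups. For 5 of them the gap between the extreme liver and its nearest neighbour was a larger share of the range than Dixon's critical value for 4 samples allows, and in all 5 that liver was FL replicate 3. On the first principal component FL replicate 3 lay at 29.24, and the other FL livers between -25.61 and -20.66. Sqstm1 was 55731 there and 78170 to 81950 in the others, and Gpx1 was 23707 there and 28959 to 29704 in the others. G6pdx was 97 there and 70 to 74 in the others, and Cat was 29018 there and 26167 to 26364 in the others. The WT group has 3 livers, too few for this rule, so WT replicate 2 was not examined by it.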

How the results depend on the processing

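No member passed the adjusted threshold under any alternative. The 2 genes past it over all tested genes became 0 with a pseudocount of 5 (404 at an unadjusted p under 0.05 by limma), with at least 10 in every liver (356), with a mean of at least 50 (316), without the trend (465) and under a replicate block (110), 1 after quantile normalisation, 0 to 5 with 1 liver left out (5 without WT replicate 3), and 6 without WT replicate 2 and FL replicate 3. The members with an unadjusted p under 0.05 numbered 3 to 6 under all alternatives but the last, where they were 10. The median of the members was -0.15 when scaled to the same total, and -0.066 to 0.036 with 1 liver left out.

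Nqo1 and Cbr3 were lower in FL at an unadjusted p under 0.05 under 18 of 18 alternatives. Nfe2l2 was under 17, all but the replicate block, and Slc7a11 under 16. Txnrd1 turned to -0.084 after quantile normalisation and -0.059 when scaled to the same total, and ran from -0.84 (without WT replicate 2) to 0.57 with 1 liver left out. Without both livers the direction reversed for Txnrd1 (-0.65), Sqstm1 (-0.09), Gclc (-0.26) and Srxn1 (-0.33). By smaller shifts Mafg, Gclm, Gsr and Esd also turned negative, and Blvra, Gpx1, Gpx4, Prdx2 and Prdx4 turned positive. These ended between -0.10 (Gclm) and 0.13 (Blvra). Leaving out 1 liver gave -0.22 to 0.50 for Sqstm1, -0.56 to 0.79 for Gclc, -0.54 to 0.72 for Srxn1, -0.49 to 0.10 for G6pdx and -0.031 to 0.56 for Me1, each reversing without WT replicate 2, which held the lowest or, for G6pdx, the highest WT value. Why the scalings turned Txnrd1 was not tested. Gpx3 ran from -1.03 to -0.10 and Hmox1 from 0.02 to 0.72 with 1 liver left out. The labels name no pairs by replicate number, and the block kept 4 members at an unadjusted p under 0.05 by limma, with Osgin1 in place of Nfe2l2. Unlike Nqo1, Cbr3 and Slc7a11, Osgin1 was higher in FL at every replicate number that both genotypes share. Its counts, FL before WT, were 11582 against 7158, 7636 against 6197, then 6147 against 4736.

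The exact permutation test cannot give a p below 0.0286 with these livers. Rounding to whole numbers limits the precision of the lowest genes, such as Gpx2 and Cbr3.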

Other observations

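Beside the 39 members, 45 companion genes were tested once WT replicate 2 and FL replicate 3 were left out. By limma 6 of them then had an unadjusted p under 0.05 (13.3%, against 9.74% of all tested genes), 3 lower and 3 higher in FL, and none passed the adjusted threshold. These genes other than Gpx2 are named after their values were seen. Sesn2, a stress-induced sestrin that p53 and NRF2 can both induce, had a log2 fold change of -0.42, and Chac1, which degrades glutathione, of -0.36. Glrx, the cytosolic glutaredoxin, had 0.36, the ferritin light chain Ftl1 0.27 and the extracellular superoxide dismutase Sod3 0.23. Over all 7 livers the same genes had log2 fold changes of 0.01 for Sesn2, -0.09 for Chac1, 0.38 for Glrx, 0.26 for Ftl1 and -0.05 for Sod3, so Sesn2 and Sod3 changed direction with those livers. The tested redox genes linked to p53 (Sesn1, Sesn2, Tigar, Gls2 and Aldh4a1) had no unadjusted p under 0.05 over all livers, and Tigar, which diverts glucose towards NADPH, averaged 354.0 in FL and 353.7 in WT.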
